A study of Mus musculus with 18 samples.

Results

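The MHC class I presentation genes are 10 genes, listed by name and role in the pathway, with earlier results of these data known: the class I chains B2m, H2-D1 and H2-K1, the peptide loading genes Tap1, Tap2 and Tapbp, the immunoproteasome subunit genes Psmb8 and Psmb9, and the proteasome activator genes Psme1 and Psme2. All 10 were among the 18204 genes listed and among the 16383 that entered the test. The class I chains and Tap2 were higher in Ctbp1/2dKO than in wildtype cells under every treatment, by 1.15 to 1.61 fold of TPM + 1. With MTOB the heavy chains H2-D1 and H2-K1 rose further in both genotypes. With 4-Cl-HIPP no member passed the test, where 0.366% of all tested genes passed in wildtype and 0.501% in dKO cells. For Psmb9, Psme1 and Psme2 no genotype difference passed.

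MHC class I molecules display short peptides from the inside of a cell to CD8 T cells. The proteasome cuts cytosolic proteins into peptides, the TAP transporter moves them into the endoplasmic reticulum, and the loading complex around tapasin places them on a heavy chain paired with beta-2 microglobulin. Most nucleated cells make these genes at a basal level, interferons raise them, and macrophages use them both to be recognised by T cells and to present antigen taken up from outside.

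RNA was sequenced from J774.1, a mouse macrophage line, in 18 samples that form 6 groups of 3 biological replicates. Wildtype and Ctbp1/2dKO cells, in which the corepressor genes Ctbp1 and Ctbp2 were targeted with Cas9, each received MTOB at 1.5 mM, 4-Cl-HIPP at 250 µM or a PBS/DMSO vehicle for 4 h. Both compounds are used as inhibitors that bind the dehydrogenase domain of CTBP proteins, and the comparisons ask what each does with and without its intended target. The dKO cells were grown out from single sorted cells, so a difference between genotypes cannot be told apart from a difference between clones, and the number of clones is not given in the sources used here. Each genotype has 1 vehicle group that serves both inhibitors. The comparisons of MTOB and of 4-Cl-HIPP with vehicle therefore share their control samples, as do the genotype and inhibitor comparisons. Nothing in the labels says whether replicates came from separate thaws or days, so the p-values measure the spread between these samples, which may be technical.

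Values are TPM, the share of all transcript copies that belong to a gene, which account for transcript length and so allow levels of different genes to be compared. They keep no sequencing depth, so the depth of each library is unknown and no counting interval can be given. The 18 libraries each summed to between 999766 and 999897 TPM over the listed genes, held between 11617 and 11776 genes above 1 TPM, and correlated within groups at Pearson r of 0.983 to 0.987 across genes. Ctbp1 was at 170.1 to 238 TPM in the 9 wildtype samples and at 19.7 to 31.5 TPM in the 9 dKO samples. Ctbp2 was at 87.8 to 96.9 TPM in wildtype and at 68.5 to 81.9 TPM in dKO samples, so its transcript was reduced but largely kept, and RNA alone does not check its loss. In the paper, western blots showed the loss of both CTBP proteins, and clones were genotyped by sequencing of PCR products. Of 10 macrophage markers, 9 were listed and all 9 exceeded 1 TPM, with summed levels of 2673 to 3493 TPM in wildtype and 2397 to 2927 TPM in dKO samples. Adgre1 (F4/80) was at 24.6 to 107 TPM in wildtype and 6.70 to 13.7 TPM in dKO samples, Itgam (CD11b) at 11.3 to 20.998 and 34.6 to 65.3 TPM, and Cd14 at 370.1 to 857 and 91.6 to 329 TPM. The ranges of the other listed markers, Cd68, Csf1r, Lyz2, Spi1, Fcgr1 and Ptprc, overlapped between the genotypes. So some markers of the macrophage state moved with genotype beside the results below, Itgam up and Adgre1 and Cd14 down. The part of cell state in those results was not tested. Of 18 markers of T cells, B cells, dendritic cells, fibroblasts and epithelial cells, 7 were listed and the highest value of any was 1.28 TPM, for Siglech.

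Among the members, 7 lie on chromosome 17, in or beside the MHC, 1 on chromosome 2 and 2 side by side on chromosome 14 (GRCm39, GENCODE). B2m spans chr2:121977957-121983594 on the plus strand. H2-K1 spans chr17:34214987-34219321 on the minus strand and H2-D1 chr17:35481691-35486475 on the plus strand. Psmb9 (chr17:34400960-34406738, minus), Tap1 (chr17:34405996-34416199, plus), Psmb8 (chr17:34416690-34420428, plus) and Tap2 (chr17:34422501-34435829, plus) follow each other within 34870 bases, and Tapbp is at chr17:34134873-34148267 on the plus strand. Psme1 is at chr14:55815190-55822034 on the plus strand and Psme2 at chr14:55824895-55829173 on the minus strand.

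Promoters of 9 of the 10 members, all but Tap2, were matched in RefSeq sequences covering 250 bases before to 50 bases after the start site, and each was placed on GRCm39 by an exact match. They were searched on both strands for the cores of 3 elements through which interferon and NF-kB signals are known to act on these genes: the ISRE core GAAANNGAA, the GAS core TTCNNNGAA and the kB core GGGNNTTCC. No match overlapped another, and only exact matches to these letters were counted, so a variant of an element would be missed. H2-K1 and Psme2 have 2 RefSeq starts each, and the first is used here. The following windows hold the matches, in capitals, with 20 bases on each side, and are shown because they are the only matches among the members.
B2m chr2:121978009-121978057 (+): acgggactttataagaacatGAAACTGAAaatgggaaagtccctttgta
H2-K1 chr17:34219404-34219452 (-): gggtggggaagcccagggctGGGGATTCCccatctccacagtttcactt
H2-D1 chr17:35481879-35481927 (+): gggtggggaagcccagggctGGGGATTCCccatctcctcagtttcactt
Psmb8 chr17:34417052-34417100 (+): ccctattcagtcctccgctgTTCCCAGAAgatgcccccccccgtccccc
Psme1 chr14:55815941-55815989 (+): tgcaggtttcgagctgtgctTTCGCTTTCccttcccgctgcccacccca

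Counted from the RefSeq start site as 0, the ISRE core began at -139 in B2m and at 10 in Psme1, where it lay on the opposite strand. The kB core began at -111 in H2-K1 and at -171 in H2-D1, and their 49-base windows differed at 1 base. The GAS core of Psmb8 began at -97. Of all 32851 promoters in the RefSeq table, 8.56% held the ISRE core, 8.3% the GAS core and 5.82% the kB core. Counted by gene the shares were 9.76%, 9.55% and 6.58%, against 2, 1 and 2 of the members searched, without Tap2. Measured from the GENCODE canonical start sites in place of the RefSeq ones, 0, 2 and 1 of all 10 members held these cores, Tap2 included. The shares of all 12924 promoters from those starts were 8.11%, 7.7% and 7.21%. So the matches depend on which start is taken. From their RefSeq starts Tap1 and Psmb9 are read away from each other, and their promoters share 275 bases. J774.1 derives from a BALB/c mouse and the reference is C57BL/6, so the cells may differ from these letters, and reads from their own class I alleles may be lost or assigned to related class I genes.

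The class I chains were the most abundant members by mean TPM in every group, B2m by far. In dKO cells with 4-Cl-HIPP the ranges of H2-D1 and Psme2 overlapped. In wildtype vehicle cells the order by mean TPM was B2m, H2-K1, H2-D1, Psme2, Psme1, Tapbp, Psmb8, Psmb9, Tap2 and Tap1, from 716 ± 8.01 down to 8.24 ± 0.302 TPM (SD, n = 3). Neighbours in this order did not overlap over the 3 samples, except Psme2 with Psme1 and Psmb9 with Tap2. In dKO vehicle cells the first 7 places were the same, and Tap2, Psmb9 and Tap1 followed with overlapping ranges. Replicates agreed most closely for the chains, with a mean coefficient of variation within groups of 1.98% for H2-D1, 2.86% for B2m and 3.20% for H2-K1. It was 13.5% for Tap1, 16.7% for Psme2 and 22.6% for Psmb9, which limits what can be seen for these genes. Together the members held 0.170% to 0.189% of all TPM in the wildtype samples and 0.202% to 0.240% in the dKO samples.

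**Figure D1:**
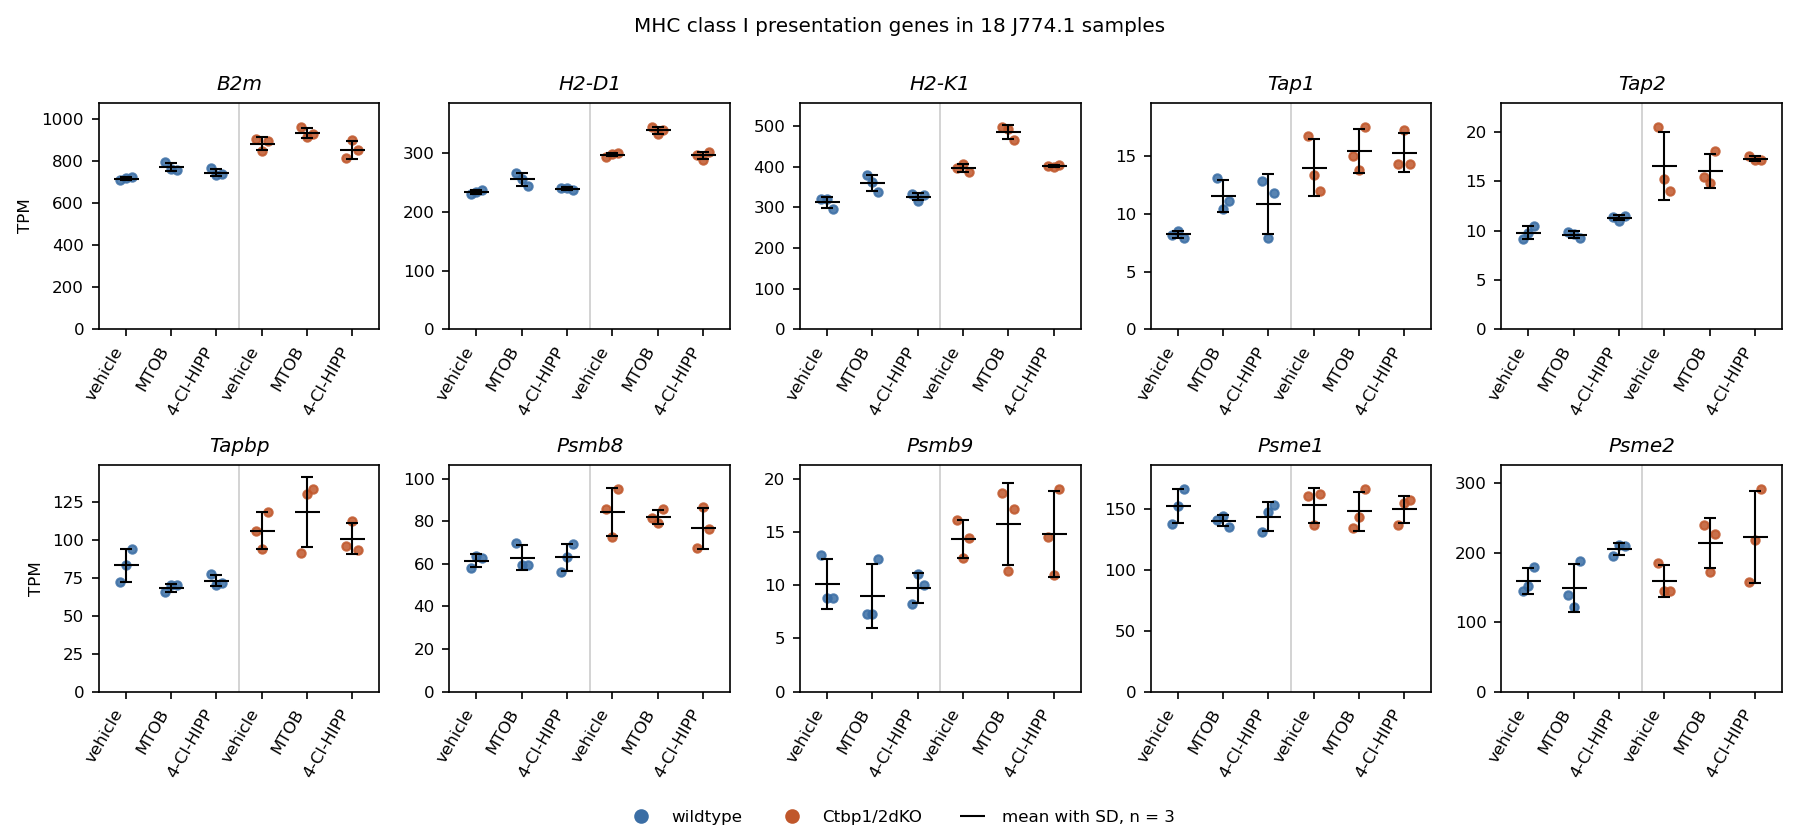
TPM (vertical axes, each starting at 0) of the 10 members in the 18 samples, by treatment, with wildtype samples in blue and Ctbp1/2dKO samples in orange; the horizontal mark is the mean and the bar the SD of 3 samples. For B2m, H2-D1, H2-K1 and Tap2 all 9 dKO samples lie above all 9 wildtype samples, and for Psme1 none does.

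B2m, which encodes beta-2 microglobulin, the light chain that every classical class I molecule needs, was at 708, 717 and 723 TPM in wildtype vehicle and at 905, 849 and 894 TPM in dKO vehicle samples. With MTOB it was at 795, 759.9 and 758 TPM in wildtype and 961, 913 and 928 TPM in dKO cells. With 4-Cl-HIPP it was at 765, 731 and 737 TPM in wildtype and 812, 897 and 852 TPM in dKO cells. The highest wildtype sample of any treatment stayed below the lowest dKO sample. B2m was higher in dKO than in wildtype cells by a log2 fold change of 0.30 with vehicle (SE 0.04, adjusted p = 6.29e-05, limma with Benjamini-Hochberg adjustment), 0.28 with MTOB (adjusted p = 0.000141) and 0.20 with 4-Cl-HIPP (adjusted p = 0.00293). Fold changes here and below are on the scale of log2(TPM + 1), which understates changes of low genes.

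H2-D1, a classical heavy chain, was at 229.6, 233 and 236 TPM in wildtype vehicle and at 294, 298 and 300.0 TPM in dKO vehicle samples. With MTOB the values were 266, 255 and 243 TPM in wildtype and 344, 333 and 339 TPM in dKO cells. With 4-Cl-HIPP they were 240.3, 241 and 237 TPM in wildtype and 296, 289 and 302 TPM in dKO cells. Again no wildtype sample reached a dKO sample, and the dKO samples with MTOB were above all others. The dKO cells were higher by a log2 fold change of 0.35 with vehicle (SE 0.03, adjusted p = 1.61e-06, limma), 0.41 with MTOB (adjusted p = 2.75e-07) and 0.30 with 4-Cl-HIPP (adjusted p = 7.25e-06).

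H2-K1, the other classical heavy chain of the reference, was at 320.3, 321 and 296 TPM in wildtype vehicle and at 397, 406 and 387 TPM in dKO vehicle samples. In MTOB samples its level was 379, 362 and 339 TPM in wildtype and 497, 493 and 466 TPM in dKO cells. With 4-Cl-HIPP it was at 333, 316 and 329 TPM in wildtype and 402, 399 and 403 TPM in dKO cells. The genotypes did not overlap, and the closest pair was a wildtype MTOB sample and a dKO vehicle sample. The log2 fold change of dKO over wildtype was 0.35 with vehicle (SE 0.05, adjusted p = 8.42e-05, limma), 0.43 with MTOB (adjusted p = 8.18e-06) and 0.30 with 4-Cl-HIPP (adjusted p = 0.000327).

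Of the peptide loading genes, Tap2 showed the clearest genotype difference. Tap1 and Tap2 encode the subunits of the TAP transporter, and Tapbp encodes tapasin, which holds empty class I molecules at the transporter. Tap2 was at 9.13, 9.81 and 10.5 TPM in wildtype vehicle and at 20.5, 15.3 and 13.99 TPM in dKO vehicle samples. With MTOB it was at 9.90, 9.65 and 9.22 TPM in wildtype and 15.4, 14.8 and 18.05 TPM in dKO cells, and with 4-Cl-HIPP at 11.4, 11.02 and 11.5 TPM and at 17.5, 17.2 and 17.2 TPM. All dKO samples were above all wildtype samples, although the dKO vehicle samples were widely spread. Its log2 fold change of dKO over wildtype was 0.69 with vehicle (SE 0.11, adjusted p = 0.000426, limma), 0.68 with MTOB (adjusted p = 0.000452) and 0.57 with 4-Cl-HIPP (adjusted p = 0.00213), or 1.61, 1.61 and 1.49 fold.

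Tap1 was at 8.23, 8.55 and 7.95 TPM in wildtype vehicle and at 16.8, 13.4 and 11.97 TPM in dKO vehicle samples. With MTOB it was at 13.1, 10.5 and 11.1 TPM in wildtype and 15.1, 13.8 and 17.5 TPM in dKO cells, and with 4-Cl-HIPP at 12.9, 7.89 and 11.8 TPM and at 14.3, 17.3 and 14.4 TPM. Under each treatment the dKO samples were above the wildtype samples, and 8 of the 9 dKO samples were above the highest wildtype sample of any treatment. The vehicle difference passed at 0.69 on the log2 scale (SE 0.16, limma adjusted p = 0.00801). The differences of 0.39 with MTOB (adjusted p = 0.143) and 0.48 with 4-Cl-HIPP (adjusted p = 0.0683) did not, and the last one passed without wildtype 4-Cl-HIPP replicate 1 (0.61, adjusted p = 0.0344). Tap1 and Psmb9 share 743 exonic bases on opposite strands and the library kit keeps no strand, so reads from these bases cannot be told apart. Long noncoding RNA genes on the opposite strand, none of them among the listed genes, also share exonic bases with other members. These are 723 bases for H2-D1, 855 for H2-K1, 533 and 165 for Tap2, and 498 for Psmb8.

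Tapbp was at 72.0, 83.2 and 93.9 TPM in wildtype vehicle and at 106, 93.7 and 118 TPM in dKO vehicle samples, which overlapped narrowly. The MTOB samples had 65.5, 70.1 and 69.9 TPM in wildtype and 91.4, 129.9 and 133 TPM in dKO cells. With 4-Cl-HIPP it was at 77.1, 70.4 and 71.8 TPM in wildtype and 95.9, 112 and 93.4 TPM in dKO cells. Under both inhibitors the genotypes were apart. The log2 fold change of dKO over wildtype passed with MTOB (0.76, SE 0.13, adjusted p = 0.000916, limma) and with 4-Cl-HIPP (0.45, adjusted p = 0.0384) but not with vehicle (0.35, adjusted p = 0.118). The vehicle difference passed without dKO MTOB replicate 1 (adjusted p = 0.0317). The 4-Cl-HIPP difference was lost without any 1 of 9 samples, among them dKO 4-Cl-HIPP replicate 2 (0.37, adjusted p = 0.154) and wildtype 4-Cl-HIPP replicate 2 (0.42, adjusted p = 0.116). Tapbp shares 923 exonic bases with Zbtb22 on the same strand, and 1130 and 326 with the noncoding RNA genes Gm19412 and Gm64688 on the opposite strand.

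The immunoproteasome subunits replace standard catalytic subunits and change which peptides the proteasome makes. Psmb8 (LMP7) was at 58.0, 63.8 and 62.9 TPM in wildtype vehicle and at 85.7, 72.6 and 95.2 TPM in dKO vehicle samples. With MTOB it was at 69.7, 59.6 and 59.5 TPM in wildtype and 81.4, 79.3 and 85.8 TPM in dKO cells, and with 4-Cl-HIPP at 56.4, 63.2 and 69.5 TPM and at 67.4, 86.6 and 76.5 TPM. The genotypes were apart with vehicle and MTOB and overlapped with 4-Cl-HIPP. The log2 fold change of dKO over wildtype passed with vehicle (0.44, SE 0.11, adjusted p = 0.0145, limma) and with MTOB (0.38, adjusted p = 0.0338) and did not pass with 4-Cl-HIPP (0.28, adjusted p = 0.142). The vehicle difference no longer passed without replicate 1 of wildtype vehicle (adjusted p = 0.0653) or dKO vehicle replicate 1 (0.0501) or replicate 3 (0.0799). The MTOB call was lost without any dKO MTOB sample (adjusted p of 0.0588 to 0.108) or wildtype MTOB replicate 2 or 3 (0.116 and 0.119).

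Psmb9 (LMP2) was the member with the largest spread. It was at 12.8, 8.78 and 8.78 TPM in wildtype vehicle and at 16.1, 12.5 and 14.5 TPM in dKO vehicle samples. Under MTOB its values were 7.26, 7.31 and 12.5 TPM in wildtype and 18.7, 11.4 and 17.2 TPM in dKO cells, and with 4-Cl-HIPP at 8.20, 11.05 and 9.98 TPM and at 14.6, 10.9 and 19.0 TPM. In each treatment 1 dKO sample fell within the wildtype range. The log2 fold change of dKO over wildtype was 0.48 with vehicle, 0.75 with MTOB and 0.54 with 4-Cl-HIPP, and none passed (SE 0.24, adjusted p = 0.273, 0.0586 and 0.208, limma). With MTOB it passed without wildtype MTOB replicate 3 (0.99, adjusted p = 0.0169) and without dKO MTOB replicate 2 (0.96, adjusted p = 0.0250), or without either of dKO 4-Cl-HIPP replicates 2 and 3 (0.0483 and 0.0485).

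Psme1 and Psme2 encode the subunits of PA28, a ring that opens the proteasome and is itself induced by interferon gamma. Psme1 was at 138, 152 and 166 TPM in wildtype vehicle and at 160.1, 136 and 162 TPM in dKO vehicle samples. Its ranges overlapped between genotypes under every treatment, and over all samples it stayed between 131 and 166 TPM. The log2 fold change of dKO over wildtype was 0.01 with vehicle (95% interval -0.19 to 0.21), 0.07 with MTOB (-0.13 to 0.27) and 0.06 with 4-Cl-HIPP (-0.14 to 0.26), none of which passed (adjusted p of 0.741 to 1, limma). Psme1 shares 2192 exonic bases with Emc9 on the opposite strand.

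Psme2 was at 145, 153 and 180.003 TPM in wildtype vehicle and at 186, 146 and 145 TPM in dKO vehicle samples. Under MTOB the level was 139, 122 and 188 TPM in wildtype and 241, 173 and 228 TPM in dKO cells, and with 4-Cl-HIPP at 195, 211 and 210.0 TPM and at 158, 219 and 292 TPM. The genotypes overlapped under each treatment. The log2 fold change of dKO over wildtype was -0.00 with vehicle (95% interval -0.43 to 0.42), 0.52 with MTOB (0.09 to 0.95, adjusted p = 0.123, limma) and 0.07 with 4-Cl-HIPP (-0.35 to 0.50). Psme2 shares 731 exonic bases with Rnf31 on the opposite strand and has a close copy, Psme2b, and adding the TPM of the copy changed no call.

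Between genotypes, 6 of the 10 members were higher in dKO cells and 0 lower with vehicle, where 7.01% of all tested genes were higher and 3.72% lower at an adjusted p below 0.05 (limma). The 6 were B2m, H2-D1, H2-K1, Tap1, Tap2 and Psmb8. With MTOB 6 were higher and 0 lower, against 6.98% and 4.18% of all genes, with Tapbp in place of Tap1. With 4-Cl-HIPP 5 were higher and 0 lower, against 6.60% and 3.63% of all genes, namely B2m, H2-D1, H2-K1, Tap2 and Tapbp. B2m, H2-D1, H2-K1 and Tap2 were called under all 3 treatments, as were 4.14% of all genes, and these 4 were also the members whose 9 dKO samples all exceeded the 9 wildtype samples, as for 3.53% of all genes. The median log2 fold change of the members was 0.35 with vehicle, 0.42 with MTOB and 0.30 with 4-Cl-HIPP, beside medians of 0.01, 0.00 and 0.00 over all genes. Only Tap1 and Tap2 with vehicle, and Tap2 and Tapbp with MTOB, also exceeded 1.5 fold of TPM + 1 (3.28% and 3.33% of all genes in that direction). Tap2 with 4-Cl-HIPP fell just short on that scale at 1.49 fold, with means of 17.3 TPM in dKO and 11.3 TPM in wildtype cells. With the fit restricted to the compared groups, 4 members passed in each genotype comparison, and the calls for Tap2 with vehicle (adjusted p = 0.0553), Tapbp with MTOB (0.0549) and B2m with 4-Cl-HIPP (0.0617) were among those lost.

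**Figure D2:**
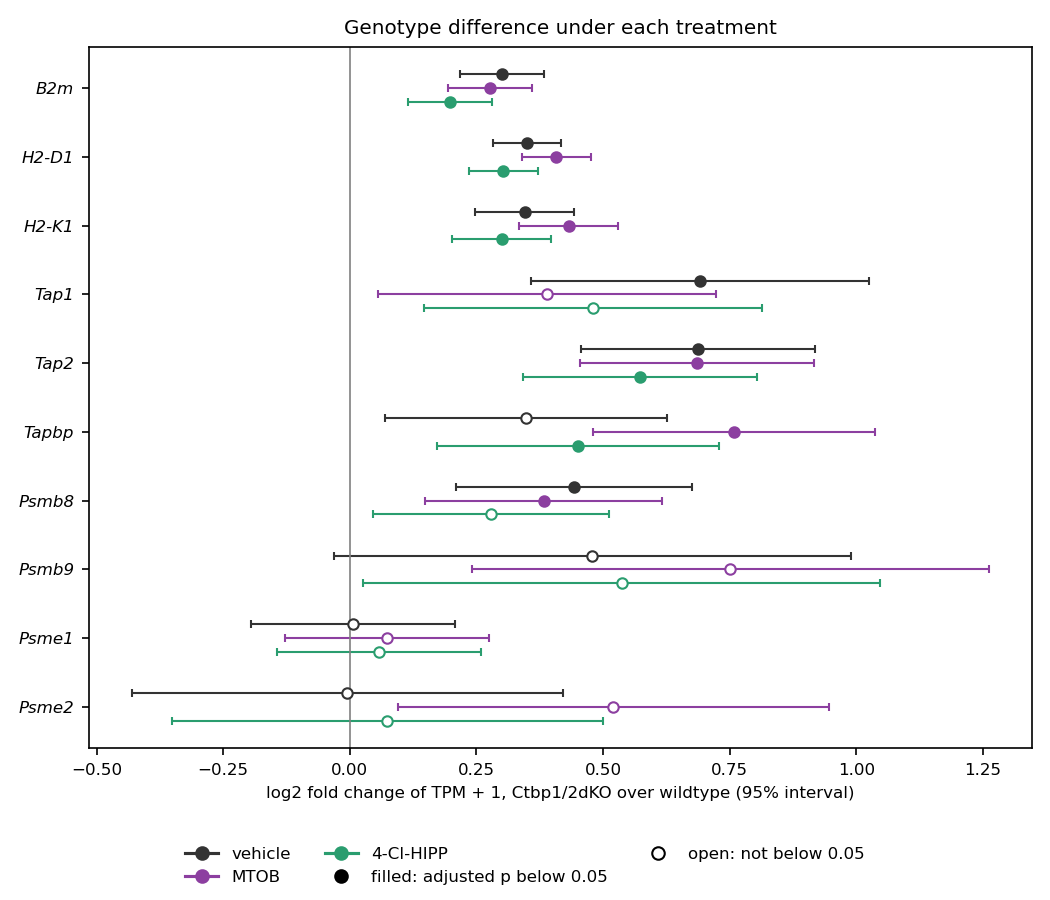
Log2 fold change of TPM + 1 in Ctbp1/2dKO over wildtype cells (horizontal axis) for the 10 members under vehicle, MTOB and 4-Cl-HIPP, with 95% intervals from limma; filled points have an adjusted p below 0.05. B2m, H2-D1, H2-K1 and Tap2 are filled under all 3 treatments, and the intervals of Psme1 include 0 in each.

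MTOB raised the heavy chain genes. On the log2 scale H2-D1 rose by 0.13 in wildtype (SE 0.03, limma adjusted p = 0.0203) and by 0.19 in dKO cells (adjusted p = 0.00178). H2-K1 rose by 0.20 in wildtype (SE 0.05, adjusted p = 0.0126, limma) and by 0.29 in dKO cells (adjusted p = 0.00101), or 1.15 and 1.22 fold. In both genotypes the MTOB samples of both genes were above all vehicle samples. These were 2 of the 10 members in each genotype, where 3.80% of all genes in wildtype and 3.04% in dKO cells were higher, and 0 members were lower, against 3.46% and 3.54% of all genes. The dKO calls held under every alternative tried. In wildtype cells both were lost when only the compared groups were fitted (adjusted p = 0.153 for H2-D1 and 0.138 for H2-K1) and without MTOB replicate 1 (0.101 and 0.0663). The H2-D1 call was also lost without MTOB replicate 2 (0.0628), vehicle replicate 1 (0.0772) or vehicle replicate 2 (0.0602), and the H2-K1 call without vehicle replicate 3 (0.0670).

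The other members did not pass with MTOB. B2m was above vehicle in all 3 samples of both genotypes, with log2 fold changes of 0.11 (adjusted p = 0.130, limma) and 0.08 (adjusted p = 0.269). Tap1 in wildtype cells also did not overlap with vehicle, at 0.44 (SE 0.16, adjusted p = 0.121), and passed without wildtype 4-Cl-HIPP replicate 2 (adjusted p = 0.0472), a sample of neither group that enters through the shared spread. Ranges that did not overlap, with the inhibitor higher, were found for 4 members in wildtype and 3 in dKO cells, and for 10.6% and 9.51% of all genes. Tapbp in wildtype cells was the one member with all MTOB samples below vehicle, at -0.27 (adjusted p = 0.297). The median over the members was 0.00 in wildtype and 0.12 in dKO cells, beside -0.01 over all genes in both.

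With 4-Cl-HIPP, at a dose and in a solvent other than those of MTOB, 0 of 10 members passed in either genotype (limma), where 0.366% of all genes passed in wildtype and 0.501% in dKO cells. At an unadjusted p below 0.05 there was 1 member in wildtype cells, Tap1 (0.34, unadjusted p = 0.0485, adjusted p = 0.603), and 1 in dKO cells, Psme2 (0.45, unadjusted p = 0.0392, adjusted p = 0.544), beside 8.19% and 8.47% of all genes. In wildtype cells 4 members, B2m, H2-D1, Tap2 and Psme2, were above all vehicle samples, and in dKO cells 0 were. The share of all genes with such ranges is not given here for 4-Cl-HIPP. The largest of these log2 fold changes, 0.37 for Psme2, did not pass (95% interval -0.05 to 0.80, adjusted p = 0.706, limma). For the class I chains the intervals were narrow. B2m was at 0.06 (95% interval -0.03 to 0.14) in wildtype and -0.05 (-0.13 to 0.04) in dKO cells. H2-D1 was at 0.04 (95% interval -0.03 to 0.11) in wildtype and -0.01 (-0.08 to 0.06) in dKO cells, and H2-K1 at 0.06 (-0.04 to 0.16) and 0.02 (-0.08 to 0.11). The median over the members was 0.05 in wildtype and 0.00 in dKO cells, beside 0.01 and 0.00 over all genes.

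**Figure D3:**
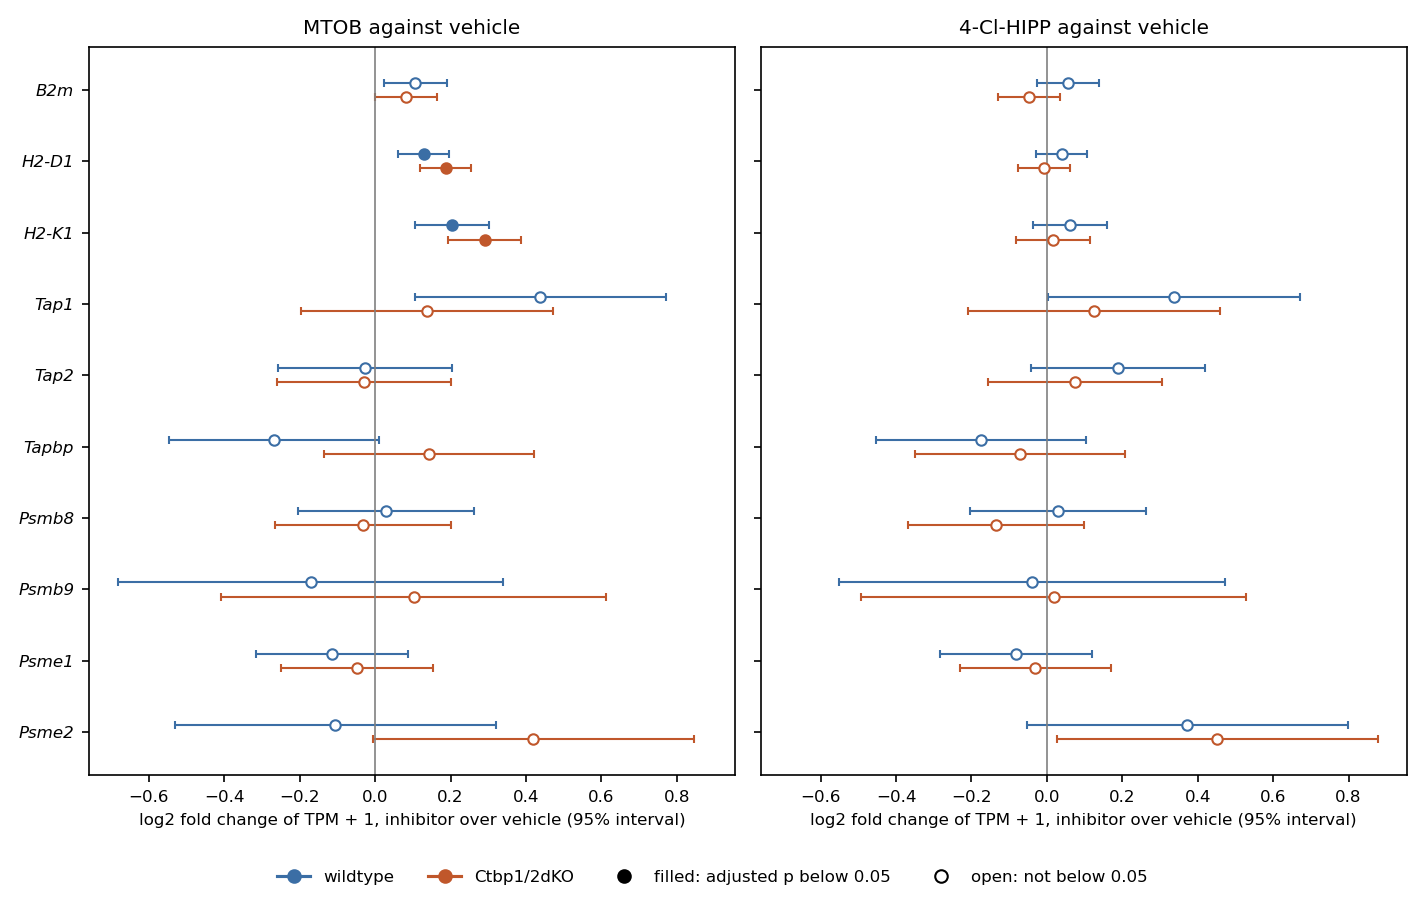
Log2 fold change of TPM + 1 for each inhibitor over vehicle (horizontal axes) in wildtype (blue) and Ctbp1/2dKO cells (orange), with 95% intervals from limma; filled points have an adjusted p below 0.05. With MTOB H2-D1 and H2-K1 are filled in both genotypes, and with 4-Cl-HIPP no point is filled.

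Whether an inhibitor acted differently in the 2 genotypes was tested as the wildtype effect minus the dKO effect. For MTOB 0 of 10 members passed (limma), as did 0.0916% of all genes, and for 4-Cl-HIPP 0 members and 0 genes passed. At an unadjusted p below 0.05 there was 1 member for MTOB, Tapbp (-0.41, SE 0.18, unadjusted p = 0.0418, adjusted p = 0.717), and 0 for 4-Cl-HIPP, beside 6.89% and 4.48% of all genes. The differences of the MTOB effect were -0.06 for H2-D1 (95% interval -0.15 to 0.04) and -0.09 for H2-K1 (-0.23 to 0.05). For Psme2 the MTOB effect was -0.11 in wildtype and 0.42 in dKO cells, and their difference of -0.53 did not pass (adjusted p = 0.761).

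Beyond the 10 members, genes of the pathway were counted in lists by role. Of 12 tested other class I and class I-like chains, 5 were higher in dKO cells with vehicle, 6 with MTOB and 4 with 4-Cl-HIPP, and 1 was lower with 4-Cl-HIPP, beside 7.01%, 6.98% and 6.60% of all genes higher and 3.63% lower with 4-Cl-HIPP. Medians were 0.30, 0.41 and 0.26. H2-T23, which encodes Qa-1, a ligand of inhibitory receptors on natural killer cells, was at 14.6, 10.4 and 15.7 TPM in wildtype vehicle and 27.6, 24.4 and 32.9 TPM in dKO vehicle samples, with log2 fold changes of 1.02, 0.96 and 1.18 under vehicle, MTOB and 4-Cl-HIPP (SE 0.18, adjusted p = 0.00118, 0.00197 and 0.000329, limma). H2-T24 was at 7.08, 3.91 and 6.54 TPM and at 25.7, 26.8 and 33.0 TPM in the same groups, with log2 fold changes of 2.13, 1.04 and 1.83 (SE 0.18, adjusted p = 9.67e-07, 0.00115 and 4.76e-06, limma). In wildtype cells MTOB raised it to 13.9, 12.9 and 8.93 TPM (0.93, adjusted p = 0.00514), and in dKO cells it was at 23.3, 25.8 and 26.6 TPM. The difference between these MTOB effects did not pass (1.09, SE 0.26, adjusted p = 0.210, limma). H2-Q6 was higher in dKO cells by 0.42, 0.35 and 0.28 (adjusted p = 0.00157, 0.00656 and 0.0287) and rose with MTOB in wildtype by 0.44 (adjusted p = 0.00179) and in dKO cells by 0.37 (adjusted p = 0.00743). H2-Q4 was higher by 0.35, 0.46 and 0.25, H2-Q7 by 0.81 with vehicle and 0.53 with MTOB, and H2-Q1 by 0.58 with MTOB, whereas H2-M3, which presents formylated peptides, was lower with 4-Cl-HIPP (-0.71, adjusted p = 0.0120). Many class I genes resemble each other and H2-D1 and H2-K1 in sequence, to a degree not measured here, so how reads were split between them is uncertain.

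The remaining steps of the pathway were counted in the same way. Of 11 other loading and trimming genes, 1 was higher and 1 lower in dKO cells with vehicle, none passed with MTOB and 1 was lower with 4-Cl-HIPP. With lists this short, 1 gene is a share near that of all genes, 7.01% higher and 3.72% lower with vehicle. Erap1, the peptidase that trims peptides in the endoplasmic reticulum, was higher with vehicle (0.57, SE 0.16, adjusted p = 0.0294, limma), the chaperone gene Hspa5 was lower with vehicle (-0.16, adjusted p = 0.0161), and Pdia3, a disulfide isomerase of the loading complex, was lower with 4-Cl-HIPP (-0.10, adjusted p = 0.00598). The chaperones Calr and Canx did not pass in any genotype comparison. With MTOB, Pdia3 fell in wildtype (-0.08, adjusted p = 0.0430) and Ide in dKO cells (-0.18, adjusted p = 0.0364). None of the 3 standard catalytic subunit genes Psmb5, Psmb6 and Psmb7, and none of 6 other assembly and activator genes, passed in any of the 9 comparisons (limma). In lists this short, no call cannot be told apart from the shares of all genes, 7.01% higher and 3.72% lower between genotypes with vehicle. The third immunoproteasome subunit, Psmb10, is among those 6 and had log2 fold changes of dKO over wildtype of -0.20, -0.14 and -0.23.

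Of 19 regulators of class I genes, 4 were higher in dKO cells with vehicle, 4 with MTOB and 5 with 4-Cl-HIPP, and 1, Irf8, was lower each time. Over all genes 7.01%, 6.98% and 6.60% were higher and 3.72%, 4.18% and 3.63% lower. Irf1, an interferon-induced factor that binds class I promoters, was at 10.4, 10.996 and 9.40 TPM in wildtype vehicle and 15.9, 12.3 and 13.8 TPM in dKO vehicle samples, with log2 fold changes of 0.41, 0.95 and 0.88 under the 3 treatments (SE 0.12, adjusted p = 0.0349, 3.71e-05 and 8e-05, limma). Irf9, the DNA-binding subunit of the interferon-activated ISGF3 complex, was higher by 0.69, 0.45 and 0.67 (adjusted p = 3.51e-05, 0.00181 and 4.69e-05), and Stat2, a subunit of the same complex, by 0.58, 0.54 and 0.39. Nlrc5, the transactivator of class I genes, was higher with 4-Cl-HIPP (0.68, adjusted p = 0.0496) and did not pass with vehicle (0.53, adjusted p = 0.138) or MTOB (0.35, adjusted p = 0.375). Ifngr1, a subunit of the interferon gamma receptor, was higher in dKO cells by 0.24, 0.33 and 0.24.

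With MTOB, 3 regulators rose and 2 fell in wildtype cells, and 4 rose and 1 fell in dKO cells, beside 3.80% higher and 3.46% lower of all genes in wildtype and 3.04% and 3.54% in dKO cells. Irf9 rose by 0.56 in wildtype (SE 0.08, adjusted p = 0.000517, limma) and 0.32 in dKO cells (adjusted p = 0.0319), Nfkb1 by 0.35 and 0.22, and Irf8 by 0.90 (adjusted p = 6.09e-07) and 0.43 (adjusted p = 0.00111), while Ifngr1 fell by 0.36 and 0.28. Irf1 rose in dKO cells (0.56, adjusted p = 0.00821), and Ifnar2 fell in wildtype cells (by 0.36, adjusted p = 0.0186). With 4-Cl-HIPP 0 of 19 regulators passed in either genotype, as did 0.366% and 0.501% of all genes, and 0 passed in the differences of effect, as did 0.0916% of all genes for MTOB and 0 genes for 4-Cl-HIPP (limma), so these counts are near the background. At an unadjusted p below 0.05 (limma) there were 3 regulators in wildtype and 4 in dKO cells with 4-Cl-HIPP, beside 8.19% and 8.47% of all genes. In the differences of effect there were 2 for MTOB and 1 for 4-Cl-HIPP, beside 6.89% and 4.48% of all genes.

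**Figure D4:**
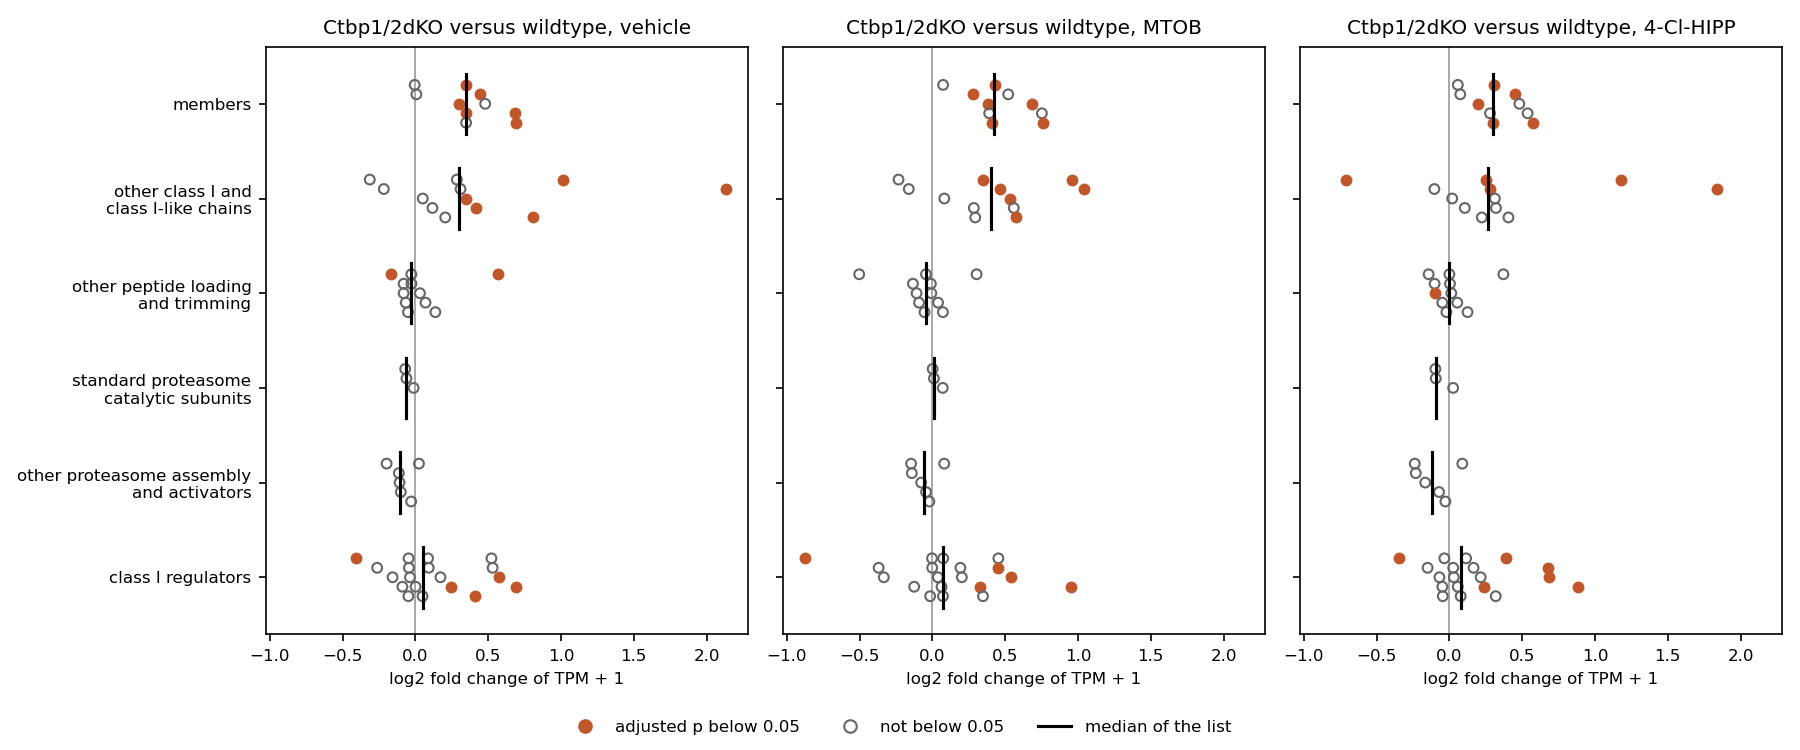
Log2 fold change of TPM + 1 in Ctbp1/2dKO over wildtype cells (horizontal axes) for every tested gene of the members and of 5 pathway lists, under vehicle, MTOB and 4-Cl-HIPP; filled points have an adjusted p below 0.05 (limma) and the black line is the list's median. Medians of the members and of the other class I chains lie between 0.26 and 0.42, and those of the loading and proteasome lists between -0.12 and 0.01.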

How the data were processed

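RNA of 18 J774.1 samples was sequenced by the authors with an unstranded kit as paired ends; the labels call it polyA RNA and the methods mention rRNA depletion. According to their methods, the authors quantified transcripts with Salmon 1.9.0 on the GENCODE M28 transcriptome (GRCm39) and used tximport and DESeq2 1.44.0. They deposited 1 table with the TPM of each gene and sample, a signal that is the mean normalized count from DESeq2, and log2 fold changes with adjusted p-values of their own, which were not used. Depth per library is unknown. Genes above the 10th percentile of the mean normalized count (0.222), 16383 of 18204, were fitted as 6 group means over all 18 samples with limma 3.58.1 (R 4.3.3) on log2(TPM + 1), with a variance trend on that count and Benjamini-Hochberg adjustment over all tested genes. A gene passed at an adjusted p below 0.05. There were 9 comparisons, all two-sided. Intervals cover 95%. The fit was tested on simulated data. Named genes were all members, list genes that passed in a comparison, Ctbp1 and Ctbp2, and the 10 genes outside the lists most like the members. Not every list gene that passed is named, and some list genes and cell type markers are named without a call. The members and lists were chosen with earlier results of these data known. Of the regulators listed, 1 gene is not reported here. Gene positions and overlaps came from GENCODE M39 on GRCm39 and promoters from RefSeq (table on GRCm38.p6). Python 3.11.15 and matplotlib 3.10.9 made the figures. The alternatives were a pseudocount of 0.1, no filter or a mean TPM of at least 1, only the compared groups, a replicate block, median scaling, no variance trend, each sample left out in turn, and, chosen after seeing the data, Psme2 summed with Psme2b.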

Additional observations from a re-analysis of the deposited data

How the results depend on the processing

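Of 90 member values (10 genes in 9 comparisons), 21 passed. Of these, 13 passed under all 25 alternatives and 8 were lost under at least 1, while 4 others were gained, and none changed direction while called. The number of members passing with MTOB in wildtype cells, 2 in the fit reported, was 0 with only the compared groups, 1 with median-scaled libraries and 1 without the variance trend, and between 0 and 3 with each sample left out in turn. It stayed at 2 in dKO cells under every alternative. The genotype counts of 6, 6 and 5 under vehicle, MTOB and 4-Cl-HIPP ranged over 5 to 7, 5 to 7 and 4 to 5 with samples left out, and over 4 to 6, 4 to 7 and 4 to 6 under the other alternatives. Of the single calls, H2-D1 with MTOB in wildtype cells was lost with median scaling (adjusted p = 0.115, limma) and without the variance trend (0.117), over a range of 0.00572 to 0.153, and Psmb8 between genotypes with MTOB was lost with median scaling (0.0550). Median scaling moved values by at most 0.0585 on the log2 scale. The causes were not tested.

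Replicate numbers are shared across groups by the labels, but no clear pairing by number was seen. This check cannot show that the samples were unpaired. Deviations of same-numbered samples correlated at -0.0866 to 0.0895 over 45 pairs, 0 of them above 0.1, beside -0.0789 to 0.088 for other numbers. Of 18 samples, 8 correlated best with a sample of their own number. With the replicate block, 2 and 2 members passed with MTOB, 0 with 4-Cl-HIPP, and 6, 7 and 5 between genotypes, and the one added was Psmb9 with MTOB (adjusted p = 0.0417, limma).

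The table gives no depth per library. The deposited mean normalized count over the samples was 164 for Tap1, 177 for Tap2 and 64.1 for Psmb9, against 2078 for B2m, so counting error limits these low genes more.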

Other observations

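Class II presentation, which serves CD4 T cells, differed between the genotypes by more than class I. Of 10 class II genes tested, 7 were higher and 1 lower in Ctbp1/2dKO cells under each treatment (limma, adjusted p below 0.05), with medians of 1.43, 1.54 and 1.43. Over all genes 7.01%, 6.98% and 6.60% were higher and 3.72%, 4.18% and 3.63% lower, with medians of 0.01, 0.00 and 0.00. H2-Aa, a class II alpha chain, was listed at 0 in all 9 wildtype samples and was at 21.3, 19.3 and 20.2 TPM in dKO vehicle samples. H2-Eb1 was likewise listed at 0 in wildtype cells and was at 16.4, 17.1 and 21.8 TPM in dKO vehicle samples, and H2-Ab1 was at 2.74, 5.23 and 4.37 TPM against 0. Cd74, the invariant chain, was at 273, 271 and 299.6 TPM in wildtype vehicle and 351, 367 and 369 TPM in dKO vehicle samples (log2 fold change 0.37, SE 0.05, adjusted p = 0.000144, limma), and rose with MTOB by 0.20 in wildtype (adjusted p = 0.0273) and 0.22 in dKO cells (adjusted p = 0.0160). Ctss, the protease that trims the invariant chain, was lower in dKO cells by 0.16 with vehicle, 0.17 with MTOB and 0.21 with 4-Cl-HIPP on the log2 scale. Ciita, the class II transactivator, was listed at 0 in all 9 wildtype samples and was at 0.154 to 1.39 TPM in the 9 dKO samples, so the genotypes did not overlap. Its difference did not pass on the log2(TPM + 1) scale, which understates low genes (adjusted p = 0.234, 0.0713 and 0.127 under vehicle, MTOB and 4-Cl-HIPP, limma).

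Genes outside the lists were ranked by the likeness of their log2(TPM + 1) to the mean of the members' standardised values over the 18 samples. The members, the pathway and class II lists and the cell type markers were left out, so their likeness is not given. Among the 8291 remaining genes with a mean of at least 10 TPM, the most alike were Ctnna1, Cox4i2, Taldo1, Myof, Mfge8, Cd276, Rin3, Serinc2, Itgal and Vim. The likeness is mostly that of the genotype difference. Within wildtype samples their Pearson r was 0.112 to 0.876 and within dKO samples -0.0211 to 0.588 (n = 9 each), given as a description.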
